A study of Mus musculus with 6 samples.

Results

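The regions described here are 2281 CTCF-bound regions of mouse embryonic stem cells that lie in gene deserts, out of 57662 regions in the deposited table. A region was taken when it lay on chromosomes 1 to 19 or X, more than 200 kb from the body of every protein-coding gene and more than 1 kb from every annotated transcript start of any gene type. The rule used positions only, in mouse build mm9 with the GENCODE vM1 annotation, and no measured value. The other 55363 regions on the same chromosomes served as the comparison. All libraries came from CTCF-EGFP-AID embryonic stem cells, in which the endogenous CTCF carries a degron tag, and auxin was given for 2 days to remove the tagged protein. The cells carried in its place a transfected wild-type CTCF (WT_CTCF) or a CTCF with alanine in place of a threonine, which takes away a site of O-GlcNAc (MUT_CTCF). CTCF binding was mapped by ChIP-seq, in which DNA bound by CTCF is pulled down with an antibody and sequenced, with 2 CTCF libraries per genotype. Each line was grown from a picked clone chosen for a CTCF level near the endogenous one, so a difference between genotypes in these libraries cannot be told apart from a difference between clones. The 2 input libraries were not analysed here.

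CTCF binds an extended DNA motif with its zinc fingers, stops the extruding cohesin ring and thereby anchors chromatin loops, chiefly where a pair of motifs face each other. O-GlcNAc is a single sugar that the enzyme OGT adds to serine or threonine residues of nuclear proteins. Gene deserts are long stretches without protein-coding genes, often found beside genes of development or of the nervous system, and many hold distant enhancers. CTCF sites in them lie far from promoters, so their occupancy is read without a nearby promoter in the same peak.

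Each library had its own list of peaks, each with a start, an end, a summit and a score set by the peak caller on tracks scaled by Drosophila spike-in chromatin. A region is named called in a library when a peak of that library overlapped it by at least 1 bp, and its score is the highest among those peaks. The table added 1 value per region, the authors' mean scaled read count over the 4 libraries. The lowest peak score was 13 in each of the 4 libraries. How the score was defined and where the caller's cutoff lay is not given in the sources used here. The read depth of each library is also unknown. A missing call or a lower score is therefore not a lower read count. The same table holds the authors' comparison of scaled counts between the genotypes, which is a separate measure that was not used here and can run in the opposite direction. Fewer calls or lower scores in MUT_CTCF are thus no measure of less bound CTCF. Every desert region was called in at least 1 library, since the regions had been built by joining the peaks. A region could thus only enter through a call.

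Sequence from the mm9 reference shows what CTCF met in these deserts. The motif searched was the 13-position core consensus of CTCF on both strands with at most 1 mismatch, and it is printed in capitals inside 30 bases, 5′ to 3′ on the strand of the motif. The first pair are the motifs of the 2 strongest desert regions that hold one, and the next lies in one of the 3 members farthest from any protein-coding gene.

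chr13:53871213-53871242 (minus strand): cggtagctTCACTAGAGGGCGccagtgcct
chr15:27164688-27164717 (minus strand): ggaaacagCCACAAGATGGCAgtgcttctg
chr1:104275355-104275384 (minus strand): aggcaagaCCAGTAGAGGGCActctgatgt

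The following pair come from the 2 deserts that hold the most regions, and the last 4 from regions with contrasting calls or scores between the genotypes.

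chr5:127103795-127103824 (plus strand): tgatacggCCACAAGGTGGCAgtagcacgc
chr8:51377679-51377708 (plus strand): attttcggCCACCAGGGGGCAgtgtcagca
chr16:66086950-66086979 (minus strand): agatccttCCACTAGATGTCActcaagata
chr10:66270544-66270573 (minus strand): catagtgaCCAGCAGATGGTAgcaaaggca
chr5:134291509-134291538 (plus strand): cttggtccTCAGCAGGTGGCGctgtttggg
chr8:110339857-110339886 (plus strand): ctttcttcCCTGCAGAGGGCAgtctctctc

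Fewer desert regions were called in MUT_CTCF than in WT_CTCF. Peaks were found at 1894 desert regions (83.0%) in WT_CTCF replicate 1 and at 2104 (92.2%) in replicate 2, against 1217 (53.4%) in MUT_CTCF replicate 1 and 1144 (50.2%) in replicate 2. Both MUT_CTCF libraries lay below both WT_CTCF libraries. The mean share was 87.6 ± 6.51% for WT_CTCF and 51.8 ± 2.26% for MUT_CTCF (SD, n = 2 each), so it was -35.9 percentage points in MUT_CTCF relative to WT_CTCF. This exceeded the spread of the replicates. The regions were joined from the peaks of these same libraries, and 967 (42.4%) entered through WT_CTCF calls alone against 6 (0.263%) through MUT_CTCF calls alone. The shares thus rest on members admitted by the calls that they compare. The difference and its p-value are a description and no support for a change at deserts. The difference was -18.3 points among regions with an authors' mean of at least 50 and -20.2 points when peaks scored below 250, the median of all peaks pooled, were dropped. With 2 libraries per genotype no difference can pass the threshold, and the two-sided exact permutation test gave its smallest possible value, p = 0.33.

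Desert regions were called less often than other regions in every library, and the gap was wider in MUT_CTCF. Other regions were called at 86.5% and 93.5% in WT_CTCF and at 58.5% and 56.4% in MUT_CTCF. The desert share minus the other share was -3.44 and -1.25 points for WT_CTCF and -5.11 and -6.25 points for MUT_CTCF. The difference between the genotypes in this gap was -3.34 points (p = 0.33, exact permutation test, two-sided). It was -0.387 points when only regions with an authors' mean of at least 50 were used, -0.622 points with scores of at least 250, and -9.16 points when deserts began at 500 kb.

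**Figure D1:**
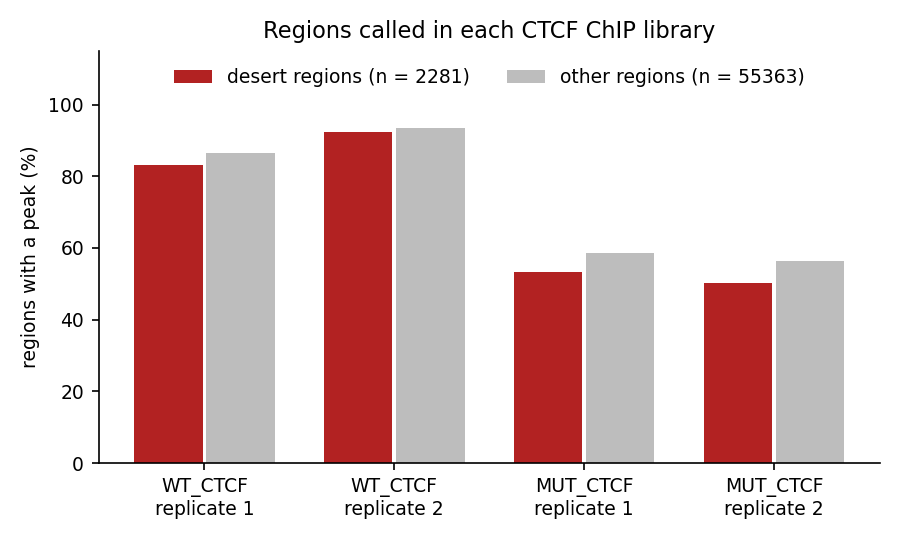
Share of regions with a peak in each library, in percent, for the 2281 desert regions and the 55363 other regions. The 2 MUT_CTCF libraries have the lowest bars in both classes, and in every library the desert bar is the lower of the pair.

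Most desert regions were either called in all 4 libraries or only in WT_CTCF. All 4 libraries called 1041 desert regions (45.6%), against 52.6% of all regions on these chromosomes. Both WT_CTCF libraries and neither MUT_CTCF library called 451 (19.8%), against 19.5% of all regions, so this class was close to the background. No desert region had calls in both MUT_CTCF libraries without one in WT_CTCF, a class that held 0.0278% of all regions (16 regions). A further 231 desert regions (10.1%, against 7.87% of other regions) had calls in both WT_CTCF libraries plus 1 MUT_CTCF library, and 516 (22.6%, against 18.6%) in 1 WT_CTCF library alone. The authors' mean, as a median, was 148.25 for the regions called in all 4 libraries, 45.25 for those called in both WT_CTCF libraries alone and 26.9 for those called in 1 WT_CTCF library alone. Classes with fewer calls thus had the lower means.

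Among the 1041 desert regions called in all 4 libraries, scores were lower in MUT_CTCF and lower than at other regions. The median score was 408 and 424 for WT_CTCF and 188 and 175 for MUT_CTCF, which is 416 ± 11.3 against 181.5 ± 9.19 (SD, n = 2 each; p = 0.33, exact permutation test, two-sided). At the 29271 other regions called in all 4 libraries the medians were 586, 624, 263 and 250 in the same order. The desert median was 0.696, 0.679, 0.715 and 0.700 of the other median, so the offset between desert and other regions was nearly the same in the 4 libraries. Placed among all regions called in all 4 libraries, the median desert region stood at the 34.1 ± 1.33 percentile in WT_CTCF and at the 36.1 ± 0.818 percentile in MUT_CTCF (SD, n = 2 each; p = 0.33, exact permutation test, two-sided). That difference of 2.00 was 0.784 without WT_CTCF replicate 2, 1.06 without MUT_CTCF replicate 1 and 4.92 with scores of at least 250. The genotypes were not fully separated without chromosome X, the desert with the most regions, regions of more than 1 genomic copy or regions touching a gene. The same held for deserts from 500 kb. These settings gave 0.956 to 1.74 (p = 0.67 in each, exact permutation test, two-sided). Peaks in deserts were also narrower, at 461 and 488 bp in WT_CTCF and 353 and 331 bp in MUT_CTCF, against 529, 557, 403 and 388 bp at other regions.

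**Figure D2:**
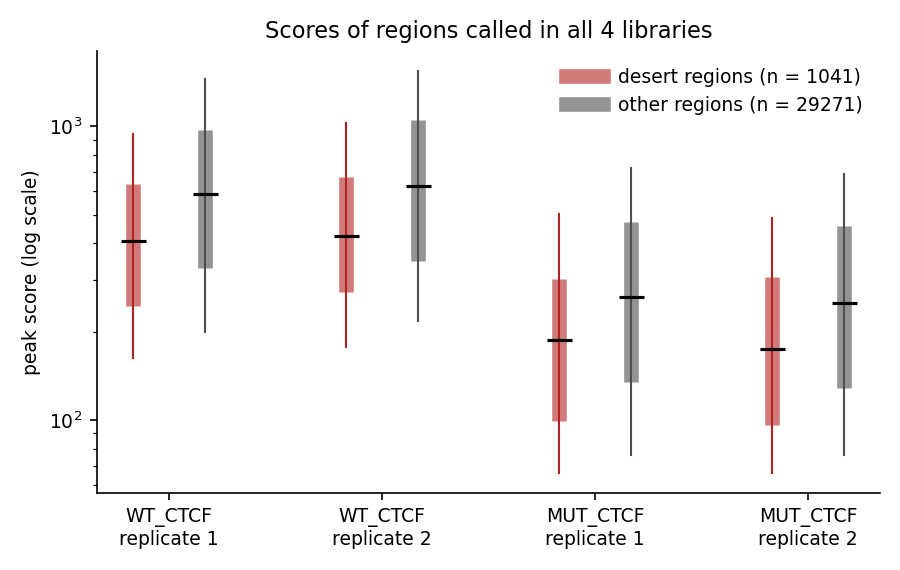
Peak scores on a log axis for regions called in all 4 libraries. Thick bars span the 25th to 75th percentile, thin lines the 10th to 90th, and black dashes mark medians. Desert medians run from 408 and 424 in WT_CTCF to 188 and 175 in MUT_CTCF, each below the median of other regions in the same library.

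Region by region, the ratio of scores between the genotypes had nearly the same median in deserts as elsewhere. Both MUT_CTCF scores lay below both WT_CTCF scores at 986 of the 1041 desert regions (94.7%), against 96.2% of all regions called in all 4 libraries. Both lay above at 2 desert regions, against 0.218% of all regions, and the groups overlapped at the remaining 53. The median log2 ratio of MUT_CTCF to WT_CTCF score was -1.17 in deserts (25th to 75th percentile, -1.49 to -0.87) and -1.18 at other regions, which is a 2.25-fold lower score in deserts and a 2.26-fold lower score elsewhere. Between the replicates of a genotype, desert scores differed by a median of 0.25 in WT_CTCF and 0.30 in MUT_CTCF on the log2 scale. Since scores at nearly all regions of the genome moved the same way, a change of scale of a whole library and a change at single sites cannot be told apart here.

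**Figure D3:**
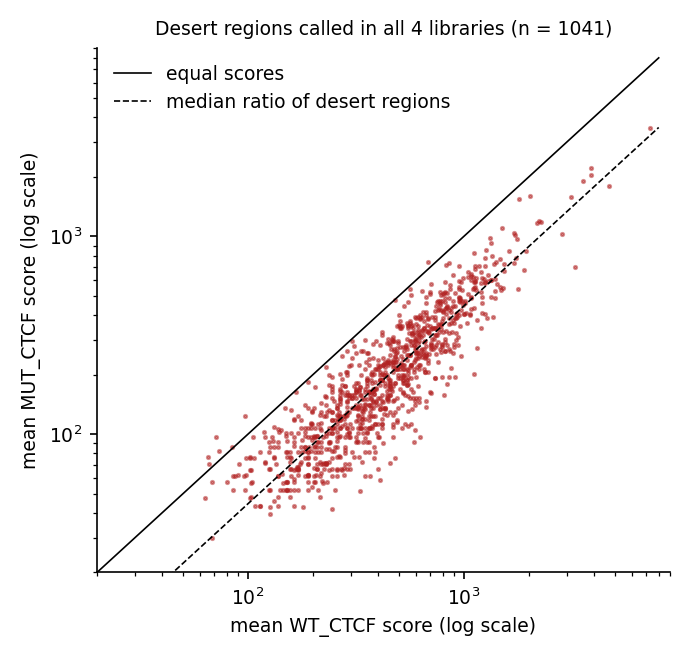
Mean MUT_CTCF score against mean WT_CTCF score, both on log axes, for the 1041 desert regions called in all 4 libraries, 1 point per region. The solid line marks equal scores and the dashed line the median ratio. Nearly all points lie under the solid line, over the whole range of scores.

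The strongest desert region in all libraries lay at chr13:53870871-53871628, 249 kb from Gm5449 and 275 kb from Drd1a, the gene of the D1 dopamine receptor. Its scores were 6663 and 7884 in WT_CTCF and 3465 and 3572 in MUT_CTCF. The groups did not overlap, and the authors' mean of 1316.75 was the highest of all desert regions. Next came chr15:27164346-27165068 between Gm6576 and Ank, which encodes a transporter of pyrophosphate, with 3580 and 4230 against 2202 and 2241. The third, chr15:60988843-60989750, lies 236 kb from A1bg and 827 kb from Myc, the growth-promoting transcription factor. This region scored 4097 and 3675 in WT_CTCF and 2182 and 1887 in MUT_CTCF. It holds no match of the motif. All 3 regions occur in 1 copy in the genome and were lower in MUT_CTCF by 2.07, 1.76 and 1.91-fold.

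The steepest differences were found at regions of middling score. At chr4:12465693-12466184, between Fam92a and Runx1t1, the scores were 377 and 440 in WT_CTCF and 42 and 76 in MUT_CTCF, which is 6.92-fold lower. At chr10:66270262-66270790, between Ctnna3, a catenin of cell junctions, and Reep3, they were 723 and 537 against 110 and 83, which is 6.53-fold lower. At chr5:134291296-134291787, in the desert that follows Auts2, they were 329 and 332 against 37 and 66, which is 6.42-fold lower. These 3 regions were chosen for the size of the difference, so their values are a description.

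Higher scores in MUT_CTCF were rare and small. At chr8:110339668-110340021, between Psmd7 and Zfhx3, a homeobox transcription factor of neurons and muscle, the scores were 80 and 62 in WT_CTCF and 86 and 107 in MUT_CTCF, a log2 ratio of 0.44. At chr8:114854598-114854943, 239 kb from Cntnap4, a synaptic adhesion protein, they were 112 and 82 against 118 and 129, a log2 ratio of 0.35. The gap between the groups was 6 score units at each, smaller than the difference between the replicates of either genotype. The third by rank, chr3:120450561-120451108, 407 kb from Rwdd3 and 964 kb from Ptbp2, already ran the other way. Its scores were 295 and 281 in WT_CTCF and 259 and 271 in MUT_CTCF.

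Of the desert regions called in both WT_CTCF libraries and in no MUT_CTCF library, the strongest was chr8:118813675-118814276. It lies 582 kb from Maf, a bZIP transcription factor, and 215 kb from Dynlrb2, a dynein light chain, and scored 266 and 345 in WT_CTCF. The region chr12:19950150-19950313 scored 287 and 259, but its sequence has a median of 10 copies in the genome, and reads aligned to several places had been removed. At chr16:66086764-66087178, between Vgll3 and Cadm2, a cell adhesion gene, the scores were 258 and 317. These WT_CTCF scores lay under the median of 408 and 424 for desert regions called in all 4 libraries.

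Calls were fewer farther from genes, while scores showed no steady order within deserts. Desert regions had a median distance of 356 kb to the nearest protein-coding gene, from 200.012 kb up to 2.196 Mb. At 200 to 500 kb (1640 regions) the share called was 84.4% and 92.8% for WT_CTCF and 56.5% and 53.5% for MUT_CTCF. From 500 kb to 1 Mb (485 regions) it was 81.2%, 92.2%, 49.1% and 44.7%. Beyond 1 Mb (156 regions) it was 74.4%, 86.5%, 33.3% and 32.1%. The authors' mean was lower with distance too, with a median of 76.9, 59.0 and 46.6 in these classes, against 89.5 at 50 to 200 kb. Median scores of regions called in all 4 libraries were 424 and 456 in WT_CTCF and 200 and 175 in MUT_CTCF at 200 to 500 kb. From 500 kb to 1 Mb they were 347, 380, 164 and 145, and beyond 1 Mb, over 40 regions, 384.5, 416.5, 146 and 152. The median log2 ratio of the scores was -1.15 at 200 to 500 kb, -1.20 from 500 kb to 1 Mb and -1.26 beyond 1 Mb. Among these 3 classes the ratio was lower in each farther one, and its last value rests on 40 regions. Nearer to genes it was -1.17 within gene bodies, -1.19 up to 50 kb and -1.16 at 50 to 200 kb. Over all classes it thus had no steady order with distance. Just inside the limit, at 200012 bp, chr3:143651027-143651482 scored 287 and 424 in WT_CTCF and 188 and 163 in MUT_CTCF, and at 200059 bp chr15:39975599-39976135 scored 723, 723, 386 and 303. Just outside it, at 199987 bp, chr16:15352509-15352783 scored 113 and 114 in WT_CTCF with no call in MUT_CTCF, and at 199755 bp chr4:83710390-83711162 scored 925, 1084, 753 and 656.

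**Figure D4:**
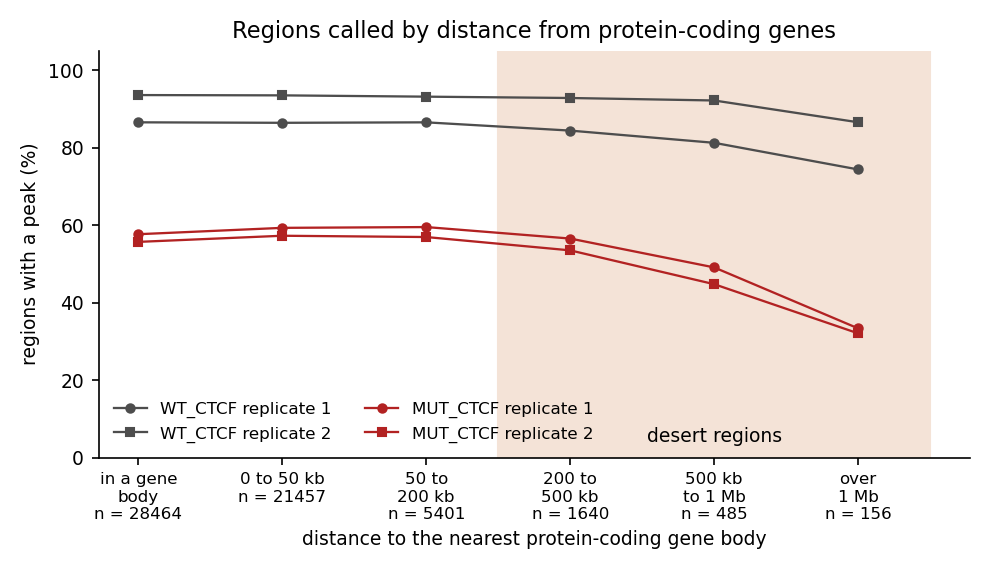
Share of regions called in each library, in percent, by distance to the nearest protein-coding gene body, with the number of regions under each class. Shading marks the desert classes. The MUT_CTCF lines run from 56.5% and 53.5% at 200 to 500 kb to 33.3% and 32.1% beyond 1 Mb, while the WT_CTCF lines end at 74.4% and 86.5%.

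The members farthest from any protein-coding gene, taken from different deserts, differed in strength and copy number. The farthest, chr8:52623193-52623366 in the middle of the desert between 4930555F03Rik and Aga, was called in WT_CTCF replicate 1 alone with a score of 47, and its sequence has a median of 175.5 copies in the genome. In the desert between Dsel and Cntnap5a, chr1:115629590-115629769 was called in WT_CTCF replicate 2 alone with a score of 57. In contrast, chr1:104275044-104275687, 1893 kb from Cntnap5b, was called in all 4 libraries with scores of 793 and 811 in WT_CTCF and 358 and 303 in MUT_CTCF. It holds the motif without a mismatch.

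At a like mean over the 4 libraries, desert regions called in WT_CTCF were called in MUT_CTCF more often than other regions in the upper bins of that mean. Of the 1723 desert regions called in both WT_CTCF libraries, 60.4% were also called in both MUT_CTCF libraries, against 65.9% of 44441 other regions. When all regions were split by the authors' mean into 10 bins of equal number, with bin 1 the lowest, the order turned. The mean includes the MUT_CTCF libraries, whose calls are compared here. In bins 1 and 2 no region of either class was kept, and in bin 3 none of 214 desert regions and 0.371% of 3771 other regions were. In bins 4, 5 and 6 the kept share was 11.8%, 57.4% and 94.2% in deserts and 7.16%, 45.6% and 83.8% at other regions. In bins 7 to 10 all 596 desert regions were kept, against 94.9% to 99.0% of other regions. Weighted by the number of desert regions in each bin, the kept share was 5.38 points higher in deserts, and it was 5.32 and 4.58 points higher when replicates 1 and replicates 2 were taken singly. By distance it was 5.57 points higher at 200 to 500 kb, 5.93 points higher from 500 kb to 1 Mb and 0.804 points higher beyond 1 Mb.

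The size of this gap depended on the other regions and on the measure used to match them. In bins 7 to 10, 88.5% of 3259 other regions within 1 kb of a transcript start were kept, against 99.0% of 19182 farther from a start. Against the latter alone, the kept share in deserts was 3.84 points higher. Desert regions were also narrower at a like mean, with a median width of 332 against 352 bp in bin 4 and 466 against 477 bp in bin 6. Over bins of the mean per bp of width the difference was 0.611 points, and with promoter regions also left out it was -0.58 points. Over bins of the WT_CTCF score it was 2.99 points, and 2.12 points without promoter regions. Of these settings the difference was below 0 only in the one that joined the mean per bp with the loss of promoter regions.

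**Figure D5:**
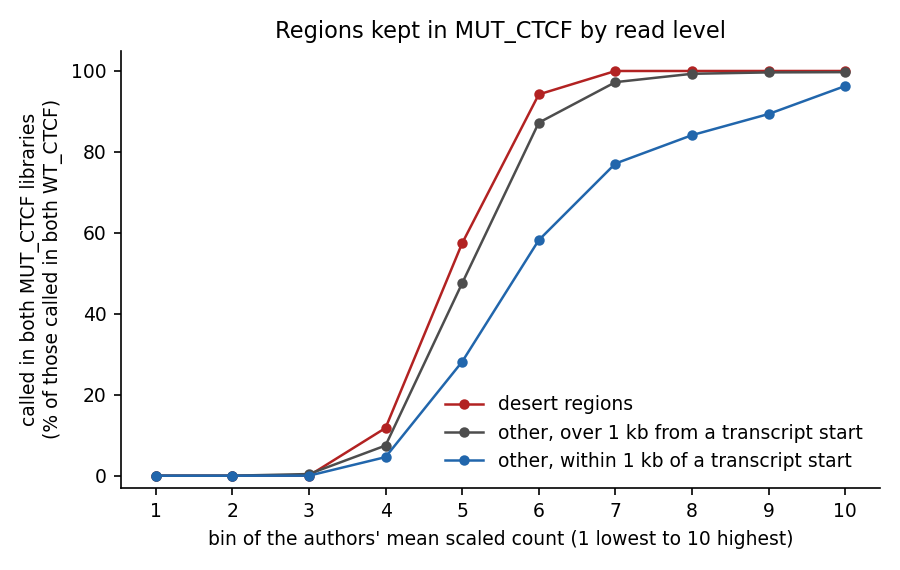
Percent of regions called in both WT_CTCF libraries that were also called in both MUT_CTCF libraries, by bin of the authors' mean scaled count (bin 1 lowest), for desert regions and for other regions farther from or within 1 kb of a transcript start. Desert regions reach 94.2% in bin 6 and 100% from bin 7 on, and the line of regions near a start runs lowest.

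CTCF regions were sparse in deserts. Deserts took up 478 Mb, or 18.7% of the sequence of these chromosomes, and held 3.96% of the regions, which is 4.77 regions per Mb against 26.7 per Mb in the rest. The median gap between neighbouring regions of a desert was 68.0 kb, whereas it was 15.2 kb over all regions. Of 842 desert intervals 575 held at least 1 region, with a median of 3 regions in those, and 41 held 10 or more. Deserts were poorer in G+C, at 38.5% of bases against 42.5% in the rest of the sequence. Only 59 members touched an annotated gene that does not code for protein, among them 16 at lincRNA genes.

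The desert with the most regions was also dense. Between Gm4868 and Tmem132c, a transmembrane protein gene, at chr5:126529111-127522177, 47 regions lay within 0.993 Mb, which is 47.3 per Mb and more than the average outside deserts. Its regions were called at 40 and 42 sites in WT_CTCF and at 30 and 26 in MUT_CTCF, 26 were called in all 4 libraries, and 29 held the motif. The strongest of them, chr5:127103421-127104066, scored 1066 and 1180 in WT_CTCF and 625 and 548 in MUT_CTCF. The next were 4930555F03Rik to Aga on chromosome 8 with 27 regions, and Dsel to Cntnap5a on chromosome 1 and Auts2 to Gatsl2 on chromosome 5 with 20 each. In the first of these, chr8:51377303-51378057 scored 1275 and 1392 in WT_CTCF and 673 and 533 in MUT_CTCF. In the second, chr1:114275108-114275789, which holds no motif match, scored 1629 and 1772 against 1074 and 1004.

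The longest deserts held between 8 and 27 regions each where they had sequence, against a median of 3 in deserts with any region. The longest interval by position, 6.80 Mb on chromosome 7 between Gm5591 and Gm16387, is an assembly gap with no known base and no region. Of the deserts with sequence, Celf4 to Pik3c3 on chromosome 18 spans 4.12 Mb with 12 regions, and 3 of them had calls in every library. Olfm4 to Pcdh17 on chromosome 14, beside a protocadherin gene, spans 4.02 Mb with 8 regions, and 2 of them had calls in every library. Cntnap5b to Cdh20, beside a cadherin gene on chromosome 1, spans 3.88 Mb and had 14 and 18 of its 19 regions called in WT_CTCF and 8 and 5 in MUT_CTCF. The densities of these 3 deserts were 2.91, 1.99 and 4.89 regions per Mb, against 4.77 per Mb over all desert sequence. The next longest, 4930555F03Rik to Aga at 3.59 Mb and Dsel to Cntnap5a at 3.42 Mb, are also among the fullest, with 7.52 and 5.85 regions per Mb.

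Deserts differed widely in how many of their regions were called in all libraries. Among the 41 deserts with 10 or more regions this share ran from 10% to 100%, with a median of 50%. The lowest was D3Ertd751e to Pcdh10 on chromosome 3, where 6 and 8 of 10 regions were called in WT_CTCF and 1 in each MUT_CTCF library, with a median authors' mean of 39.875. The highest was Kcnj2 to Gm11678 on chromosome 11, beside the gene of an inward-rectifier potassium channel, where all 11 regions were called in the 4 libraries with a median authors' mean of 208.5. Its median scores were 603 and 570 in WT_CTCF and 290 and 290 in MUT_CTCF, and both MUT_CTCF scores were below both WT_CTCF scores at each of the 11. Both deserts were singled out after their values were seen, and they differ in read level as well as in calls.

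Genes of development and of neuronal adhesion often stood at the edge of these deserts. Of 80 annotated genes in a list of developmental transcription factors, 42 (52.5%) flanked a desert with at least 1 region, among them Sox2, Irx3, Meis1 and Tbx3. Of 86 genes in a list of neuronal adhesion and synapse genes 61 (70.9%) did, including Cdh10, Pcdh9, Slitrk1 and Cntn5, against 4.67% of all 22208 protein-coding genes. The lists were drawn from general knowledge of which genes adjoin gene deserts, so these shares describe the deserts and test nothing. The 193 regions beside the transcription factor genes were called at 83.4% and 94.3% in WT_CTCF and 57.0% and 56.5% in MUT_CTCF. The 378 regions beside the neuronal genes were called at 80.4%, 90.5%, 46.6% and 41.0%, and their median authors' mean was 56.5 against 79.25 beside the transcription factor genes.

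Sox2, a pluripotency factor of embryonic stem cells, has deserts on both sides with 9 regions in all, described here after their values were seen. On the side of Atp11b all 5 regions were called in every library. The region chr3:35222582-35223188 scored 569 and 637 in WT_CTCF and 263 and 250 in MUT_CTCF. The region chr3:35381022-35381781 scored 1236 and 1180 against 317 and 372. On the side of Dnajc19, chr3:34290090-34290682 scored 536 and 472 against 358 and 386, with the smallest difference of the 7 regions called in all libraries, a log2 ratio of -0.44. Also on that side, chr3:34227727-34228259 scored 377 and 347 in WT_CTCF and 118 and 212 in MUT_CTCF. The remaining 2 regions of that side, chr3:34331483-34331789 and chr3:34345543-34345789, were called in WT_CTCF alone. The former scored 216 and 114, and the latter 90 and 114.

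Desert regions of the X chromosome had the lowest kept share in MUT_CTCF of all chromosomes. The 56 regions had 1.63 members per Mb of desert, against 3.61 to 7.18 on chromosomes 1 to 19. They were called at 76.8% and 92.9% in WT_CTCF and at 30.4% and 25% in MUT_CTCF. Desert regions of chromosomes 1 to 19 together were called at 83.2%, 92.2%, 53.9% and 50.8% in the same order. The median log2 ratio of scores was -1.27 for desert regions of the X chromosome and -1.30 for its other regions. Of the 39 called in both WT_CTCF libraries 11 (28.2%) were kept, below the range of 51.5% to 69.7% on chromosomes 1 to 19. Other regions of the X chromosome were kept at 60.5% of 1021. The median authors' mean was 49 for the desert regions of the X chromosome and 74.25 for its other regions, and the number of regions is small.

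The CTCF motif was found in 1232 desert regions (54.0%), against 60.9% of other regions. Intervals of the same width 5000 bp to either side held it at 1.32% around desert regions and at 4.57% around other regions. These intervals were not cleared of neighbouring CTCF regions, which were sparser in deserts. They were also narrower around desert regions, whose median width was 376 bp against 456 bp. What the difference came from was not tested. Without a mismatch the motif was present in 267 desert regions (11.7%) and in 12.7% of other regions. The share was higher at higher read levels, from 32.3% in bin 1 of the authors' mean to 83.6% in bin 10, and other regions ran from 36.2% to 78.0%. It was higher in deserts than at other regions in bins 8 (72.6% against 70.5%) and 10, and lower in the rest. The whole region was searched, and the median width of desert regions ran from 191 bp in bin 1 to 732 bp in bin 10. Of desert regions called in all 4 libraries 64.8% held it, of those called in both WT_CTCF libraries alone 50.1%, and of those called in 1 WT_CTCF library alone 37.8%. Pairs of matches in 1 region were fewer in deserts, with 2 or more matches in 1.53% against 4.02%. Desert and other regions were not matched for width in any of these motif shares.

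Summits sat on the motif in both genotypes. Over the 675 desert regions with a motif and calls in all 4 libraries, the median distance from summit to motif centre was 9 and 10 bp in WT_CTCF and 11 bp in each MUT_CTCF library, and 98.2% to 98.8% of summits lay within 50 bp. Other regions gave 10 and 10 bp and 11 and 11 bp, with 94.8% to 95.7% within 50 bp. Summits of the same desert region differed by a median of 8 bp between the WT_CTCF replicates, 9 bp between the MUT_CTCF replicates and 10 bp between the genotypes.

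Over all desert regions with a motif, neighbouring motifs faced each other about as often as elsewhere. Of 754 neighbouring pairs 179 (23.7%) faced each other, 406 (53.8%) pointed the same way and 169 (22.4%) pointed apart, against 24.5%, 51.0% and 24.5% at other regions. Among regions called in all 4 libraries, 72 of 329 desert pairs (21.9%) faced each other, against 25.1% elsewhere. In that set 54.1% pointed the same way and 24.0% apart, against 49.8% and 25.1%. Where a single mismatch was present it fell on position 5 of the consensus in 489 desert regions (50.7%), against 59.1% elsewhere. Desert regions had a median of 42.7% G+C and 3 CpG dinucleotides, against 45.7% and 5 at other regions. More than 1 genomic copy was found for 7.37% of desert regions and 6.55% of other regions, and for 1.83% of the desert regions called in all 4 libraries against 15.5% of those called in 1 WT_CTCF library alone.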

How the data were processed

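Peak lists of 4 CTCF ChIP-seq libraries and 1 table of joined regions were analysed. Per the labels and the study's methods, the authors trimmed reads with Trim Galore 0.4.4, aligned them to mm9 with Bowtie2 2.3.4.1, removed reads with several alignments and duplicates, and took a scale factor per library from Drosophila spike-in reads. The authors called peaks per library with MACS2 2.1.1.20160309 on scaled tracks, and the deposited score of a peak is the caller's value. The authors' deposited mean signal per region is an average of scaled read counts over the 4 libraries, and the 5 further columns of that table (the authors' log2 fold change, its error, statistic, p-value and adjusted p-value from DESeq2 1.38.0) were not used. Genotypes and replicates follow the sample titles. The replicates of a genotype are described as biological ones, and p-values measure the spread between these libraries only.

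Distances were computed here to GENCODE vM1 genes, and sequence was read from the mm9 (NCBIM37) reference with pysam 0.24.0. That reference is not soft-masked, so genomic copies of 31-mers taken every 20 bp replaced repeat content, a choice made after seeing the data. One value per library entered each permutation test over the libraries (exact, two-sided, threshold 0.05). Regions are not replicates, so counts and medians over regions carry no test. Peak-to-region matching, distances, tests, motif search and copy number were tested on simulated data. Numpy 2.4.6 and pandas 2.3.3 were used. Depth per library is unknown, so no interval for counting error is given.

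The desert regions, gene lists and named regions were chosen with earlier results of these data known. Named were, passing over chromosome 18, up to 3 regions each that lay farthest from genes, scored highest in the 3 fullest deserts, scored highest of all, were called in 1 genotype alone, or had the lowest or highest ratio of scores without overlap of the groups. The 5 longest and 5 fullest deserts were named too. Alternatives were other distances, overlaps, score and mean limits, leaving out each library, chromosome X or multi-copy regions, and a replicate block.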

Additional observations from a re-analysis of the deposited data

How the results depend on the processing

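Over 13 results and 154 alternatives, 133 counted as unmoved, 20 moved and 1 turned in sign. For the differences between genotypes, unmoved means the same direction only. Some alternatives could not move a result. The replicate block repeats the same differences, and an authors' mean of at least 50 left the same 1041 desert regions called in all 4 libraries. The difference in share called was -18.3 points with an authors' mean of at least 50 and -20.2 points with scores of at least 250. In the gap to other regions it was -0.387 and -0.622 points, the former without full separation of the genotypes. That gap was -2.03 points from 100 kb and -9.16 points from 500 kb. The difference in the median score was -401.5 with scores of at least 250, and that in the percentile ran from 0.784 to 4.92. None of the tests could pass the threshold in any setting, which says nothing about stability. The median log2 ratio of scores in deserts was -1.04 when peaks had to cover at least 50% of a region and -0.93 when peaks scored below 250, the pooled median, were dropped, against -1.10 and -1.05 at other regions. The share called in all 4 libraries was 13.7% with the latter limit and 73.0% with an authors' mean of at least 50, which left 10.9% called in both WT_CTCF libraries alone. When 1 replicate sufficed for a call, 42.4% belonged to WT_CTCF alone and 0.263% to MUT_CTCF alone. Leaving out each library in turn gave 23.7% to 35.6% and 0.0438% to 0.219% for these classes, the highest of the former without WT_CTCF replicate 1. The higher kept share in deserts was 4.17 points from 100 kb and 4.66 points from 500 kb, 3.84 points against other regions over 1 kb from a transcript start, 0.611 points over bins of the mean per bp, 2.99 points over bins of the WT_CTCF score and 2.12 points over bins of that score against regions over 1 kb from a start. It turned to -0.58 points over bins of the mean per bp without promoter regions. The motif share was 11.7% without a mismatch and 49.9% from 500 kb. The changes with limits on score, mean or mismatch follow from fewer peaks, regions or matches being counted, and for the others the cause was not tested.

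In a paired fit, with a replicate block, the difference in the share called was -35.9 points, in the gap to other regions -3.34 points, in the median score -234.5, in its percentile 2.00 and in the width -132.5 bp, each with p = 0.5 (exact sign-flip test), as low as 2 pairs can go. Same-numbered libraries did not deviate together (r = -0.06 over 1041 desert regions), so the numbers were not taken as pairs. The alternatives that left out multi-copy regions or the fullest desert, or that matched regions in other ways, were added after seeing the data. Unknown depth and score cutoff limit what an uncalled region can say.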
